A study of Mus musculus with 6 samples.

Results

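The 10 genes described here are members of the AP-1 and early growth response families and a related immediate-early gene: Jun, Junb, Jund, Fos, Fosb, Fosl2, Egr1, Egr2, Egr3 and Ier2. They were taken by symbol from the count files. All 10 were present among the 24015 symbols, and all 10 were among the 12939 genes with enough counts to be tested. RNA was sequenced from DN3 thymocytes of the mouse, sorted as lineage-negative cells without CD4 and CD8, low in CD44 and high in CD25. There were 6 libraries in 3 groups of 2. Tcf1-deficient cells were labelled Lck-cre+ Tcf1 fl/fl, in which Cre driven from the promoter of Lck, a gene of the T lineage, acts on a floxed allele. p45-deficient cells were labelled p45-/- and lack the long isoforms of Tcf1, the transcription factor encoded by Tcf7. Control cells were labelled wild type, so Cre and the floxed allele are labelled in the Tcf1-deficient group alone, and an effect of Cre cannot be told apart from one of the deletion. The labels give no age, and they do not say that the 2 libraries of a group are separate animals. The p-values therefore rest on library-to-library spread, which may be technical.

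AP-1 is a dimer of a Jun protein with a Fos or another Jun protein, held together by a leucine zipper. The Egr proteins are zinc-finger transcription factors. Most of these genes are immediate-early genes, transcribed within minutes of a signal through the MAP kinases from factors already in the cell, and their transcripts are short-lived. In thymocytes the pre-T cell receptor and the T cell receptor induce them, and Egr factors act at the beta-selection checkpoint of the DN3 stage. The same genes also answer stress, warming and mechanical handling of cells, and no label records how long the cells were handled, on which day or in which batch.

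Promoter windows are shown for 4 members, Fos, Fosb, Junb and Egr2, which were chosen with their values known. Jun and Jund, which were also low in both p45-deficient libraries, are not shown, and their windows held none of the motifs named below. A link between motifs and values was not tested. The windows are the 250 bases before the start in RefSeq on GRCm38.p6, the build of that table, whereas the submitters' processing notes name mm9. Windows of 7 members were read. Egr1 was left out of this search, and Egr3 and Ier2 had no entries. For Egr2 the window shown is 1 of 5 and lies in an intron of longer Egr2 transcripts. Capitals mark matches, on either strand, to the CArG box bound by serum response factor, to TGACG (the core of the cyclic AMP response element), to GCGNGGGCG (an Egr site), to TATAAA and to TGANTCA (an AP-1 site). Motifs that overlap are marked as one run.
Fos (chr12:85473640-85473889, plus strand): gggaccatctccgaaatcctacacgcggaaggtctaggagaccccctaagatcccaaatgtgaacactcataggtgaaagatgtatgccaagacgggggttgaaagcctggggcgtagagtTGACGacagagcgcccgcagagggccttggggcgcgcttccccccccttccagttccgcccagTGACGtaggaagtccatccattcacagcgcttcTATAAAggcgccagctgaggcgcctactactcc
Fosb (chr7:19310046-19310295, minus strand): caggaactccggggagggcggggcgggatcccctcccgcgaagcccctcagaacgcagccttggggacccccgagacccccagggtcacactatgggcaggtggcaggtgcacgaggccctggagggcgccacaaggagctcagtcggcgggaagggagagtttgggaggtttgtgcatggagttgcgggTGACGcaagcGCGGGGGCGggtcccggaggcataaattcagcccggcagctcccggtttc
Junb (chr8:84978749-84978998, minus strand): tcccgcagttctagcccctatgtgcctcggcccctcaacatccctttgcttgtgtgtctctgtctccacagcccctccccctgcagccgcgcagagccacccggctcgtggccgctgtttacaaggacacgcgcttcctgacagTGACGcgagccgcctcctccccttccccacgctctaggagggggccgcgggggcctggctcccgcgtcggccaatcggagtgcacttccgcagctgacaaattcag
Egr2 (chr10:67537619-67537868, plus strand): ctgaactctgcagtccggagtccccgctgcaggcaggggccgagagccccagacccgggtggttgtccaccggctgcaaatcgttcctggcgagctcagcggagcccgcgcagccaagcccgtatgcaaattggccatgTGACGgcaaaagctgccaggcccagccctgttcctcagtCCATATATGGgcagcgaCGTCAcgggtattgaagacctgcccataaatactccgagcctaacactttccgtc

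The Fos window held TGACG at positions -129 and -66 from the start and TATAAA at -33. The Fosb window held TGACG at -60 and GCGNGGGCG at -50, and the Junb window TGACG at -106. In the Egr2 window a CArG box lay at -72, with TGACG at -111 on the plus strand and at -55 on the minus strand. Another of the Egr2 windows, chr10:67535249-67535498, held none of the 5 motifs. The Fosl2 window held GCGNGGGCG at -79, and the windows of Jun and Jund held none of the 5 motifs. Over all 32851 windows of this length, 17.8% held TGACG, 1.47% a CArG box, 4.70% GCGNGGGCG, 12.4% TATAAA and 6.75% TGANTCA. No member window that was read held TGANTCA. Sequence outside the windows was not searched, so a window without a motif does not show that the gene lacks such a site.

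Library totals ran from 19640524 to 28107031 counts, and 3 counts corresponded to 0.110 to 0.145 CPM (counts relative to the size of the library scaled by TMM, as counts per 1000000). Tcf7, read as a check of the labels, stood at 979 and 976 CPM in Tcf1-deficient, 2340 and 2414 CPM in p45-deficient and 2088 and 1810 CPM in control libraries, and counts per gene do not separate its isoforms. Its difference between Tcf1-deficient and control libraries did not pass the test (1.99-fold lower, edgeR adjusted p = 0.0762). All 9 markers of DN3 thymocytes had counts in every library, with summed levels of 5010 and 7830 CPM in Tcf1-deficient, 7550 and 6970 CPM in p45-deficient and 7850 and 7030 CPM in control libraries. Single markers went different ways within these sums. Rag1 was at 458 and 801 CPM in Tcf1-deficient, 1621 and 1539 CPM in p45-deficient and 1255 and 951 CPM in control libraries. Dntt was at 1066 and 1542 CPM in Tcf1-deficient, 1265 and 1123 CPM in p45-deficient and 1718 and 1723 CPM in control libraries. Several libraries stood apart from their partner. The 2 control libraries differed most on the members themselves, by a median of 1.77 in log2 CPM, against 0.202 over all genes tested. The corresponding gaps were 0.573 for the members and 0.296 for all genes in Tcf1-deficient cells, and 0.126 and 0.138 in p45-deficient cells. Tcf1-deficient replicate 1 had 1120 CPM summed over 8 genes of double-positive and mature thymocytes, against 726 CPM in Tcf1-deficient replicate 2, 735 and 690 CPM in p45-deficient and 541 and 667 CPM in control libraries. It also carried the largest share of ribosomal Rn45s, 2.52% of counts, against 0.482% to 1.51% in the other 5 libraries. Cd4 was at 372 CPM in Tcf1-deficient replicate 1 and at 46.1 to 86.5 CPM elsewhere, and 7 natural killer and innate lymphoid markers summed to 153 CPM there, against 28.5 to 62.6 CPM in the other 5. Most of that sum in Tcf1-deficient replicate 1 was Gzmb at 73.5 CPM and Nkg7 at 65.3 CPM, while Ncr1 had no count there. The 3 gamma-delta T cell markers in the files summed to 240 and 248 CPM in Tcf1-deficient, 482 and 351 CPM in p45-deficient and 163 and 134 CPM in control libraries. Of 5 erythroid markers, 3 had no count in any library. In sorted bulk RNA, fewer cells of a type and less RNA per cell cannot be told apart.

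Fos and Fosb spanned the widest range. Fos encodes the prototype partner of Jun in AP-1. It stood at 296 and 594 CPM in Tcf1-deficient libraries, 4.74 and 5.41 CPM in p45-deficient libraries and 26.3 and 541 CPM in control libraries, a 125-fold span. Fosb, its close relative, stood at 287 and 471 CPM in Tcf1-deficient, 2.24 and 2.15 CPM in p45-deficient and 26.7 and 529 CPM in control libraries, a 245-fold span. The p45-deficient values rested on 129 and 113 counts of Fos and 61 and 45 counts of Fosb. For both genes the p45-deficient libraries lay below every other library, and control replicate 1 lay closer to them than to control replicate 2. Fosl2, which encodes the Fos family member Fra-2, was far less abundant. It had 17.7 and 6.41 CPM in Tcf1-deficient, 3.01 and 2.06 CPM in p45-deficient and 3.48 and 8.21 CPM in control libraries, so that the Tcf1-deficient and control libraries overlapped.

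The Jun genes encode the subunits that can bind DNA as Jun-Jun or Jun-Fos dimers. Jun stood at 438 and 592 CPM in Tcf1-deficient, 25.8 and 17.8 CPM in p45-deficient and 138 and 618 CPM in control libraries. Junb, often a weaker activator than Jun, stood at 590 and 772 CPM in Tcf1-deficient, 36.2 and 44.3 CPM in p45-deficient and 90.7 and 676 CPM in control libraries. Jund is the member with the steadiest expression in most cells, and it varied least of the 3, with 573 and 437 CPM in Tcf1-deficient, 112 and 116 CPM in p45-deficient and 244 and 544 CPM in control libraries. Both p45-deficient libraries lay below both controls for each Jun gene, while the Tcf1-deficient and control libraries overlapped. In the GENCODE M21 annotation Jun overlaps Junos, Junb overlaps Prdx2 and Jund overlaps Gm11175, each on the other strand. Whether the counting used strand is not known here, and without it reads of these partners could not be separated. Prdx2, the 1 partner analysed here, was at 233 and 235 CPM in Tcf1-deficient, 266 and 277 CPM in p45-deficient and 242 and 240 CPM in control libraries.

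The Egr genes did not follow the Jun and Fos genes in every library. Egr1 stood at 147 and 184 CPM in Tcf1-deficient, 32.7 and 30 CPM in p45-deficient and 29.4 and 94.1 CPM in control libraries. Its p45-deficient libraries lay just above control replicate 1, and its Tcf1-deficient libraries lay above all others. Egr2 had 37.0 and 11.4 CPM in Tcf1-deficient, 8.38 and 8.33 CPM in p45-deficient and 4.74 and 17.5 CPM in control libraries. Egr3 had 15.3 and 4.29 CPM in Tcf1-deficient, 2.94 and 3.02 CPM in p45-deficient and 1.98 and 5.31 CPM in control libraries. For both, the p45-deficient libraries lay between the 2 controls, and Tcf1-deficient replicate 1 was the highest library.

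Ier2, a nuclear immediate-early protein gene, resembled Egr1. It had 144 and 118 CPM in Tcf1-deficient, 35.0 and 32.1 CPM in p45-deficient and 37.1 and 93.4 CPM in control libraries. The Tcf1-deficient libraries lay above both controls and the p45-deficient libraries just below control replicate 1.

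**Figure D1:**
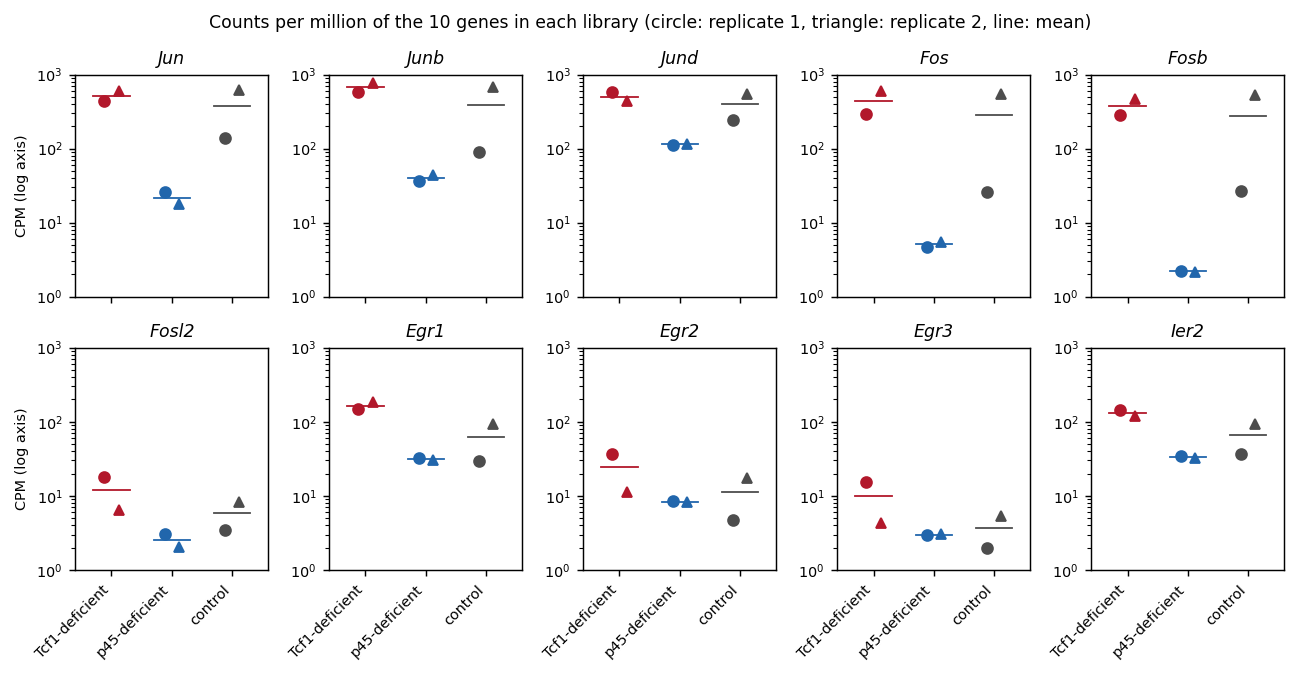
CPM on a log axis for each of the 10 genes, with Tcf1-deficient, p45-deficient and control libraries from left to right, circles for replicate 1, triangles for replicate 2 and a line at the group mean. The 2 p45-deficient points nearly coincide in most panels, whereas the 2 control points are far apart, for Fos at 26.3 and 541 CPM.

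Per kilobase of exon, a scale on which levels of different genes can be set side by side, Jund led in Tcf1-deficient (303 ± 57.7 CPM per kb), p45-deficient (68.3 ± 1.37) and control cells (236 ± 127, mean ± SD, n = 2 each). In Tcf1-deficient cells Junb followed at 296 ± 55.9 CPM per kb, within the SD of Jund, then Fos at 189 ± 89.6 and Jun at 161 ± 34.1, which lay within the SD of Fos. Ier2 (86.0 ± 11.9), Fosb (60.7 ± 20.8), Egr1 (36.9 ± 5.78), Egr2 (7.12 ± 5.33), Egr3 (2.22 ± 1.77) and Fosl2 (1.25 ± 0.826 CPM per kb) came after them. In p45-deficient cells the order was Jund, Ier2 at 22.0 ± 1.36, Junb at 17.5 ± 2.49, Egr1 at 6.99 ± 0.433 and Jun at 6.84 ± 1.79 CPM per kb, and Egr1 and Jun lay within the SD of Jun. Fos was there at 2.16 ± 0.201 and Fosb at 0.352 ± 0.00996 CPM per kb. Egr2 was at 2.46 ± 0.0106 CPM per kb there, above Fos, while in Tcf1-deficient cells Fos was far above Egr2. In control cells the SD exceeded the mean for Junb (167 ± 180), Fos (121 ± 155) and Fosb (44.5 ± 56.8 CPM per kb), and Jund, Junb, Fos and Jun (118 ± 107) could not be ranked beyond their SDs.

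p45-deficient cells were compared with control cells to see which of these genes follow loss of the long isoforms. Jun and Jund fell, and no member rose. Jun averaged 21.8 ± 5.71 CPM in p45-deficient and 378 ± 340 CPM in control cells (mean ± SD, n = 2 each), 17.3-fold lower by the fit (log2 fold change −4.11, SE 0.82; quasi-likelihood test of edgeR, adjusted p = 0.0374). Jund averaged 114 ± 2.28 CPM in p45-deficient and 394 ± 212 CPM in control cells, 3.46-fold lower (log2 fold change −1.79, SE 0.38, edgeR adjusted p = 0.0311). These 2 of 10 members called lower stand beside 7.55% of all genes tested called lower in this comparison. DESeq2 called 6 members lower, Jun, Junb, Jund, Fos, Fosb and Ier2, beside 12.6% of all genes. No member was called by edgeR with no filter on low counts (Jun 0.110, Jund 0.0963 as adjusted p) or on only the 4 libraries compared (Jun 0.113, Jund 0.0560 as adjusted p). Other RNAs moved with the p45-deficient group. The sum of the gamma-delta T cell markers was higher in both p45-deficient libraries than in every other library, as given above. Cd163l1, at 383 and 249 CPM in p45-deficient libraries, made up most of that sum there, and Blk was also highest there. Sox13 was not, with 105 and 112 CPM in Tcf1-deficient, 60.6 and 66.2 CPM in p45-deficient and 77.1 and 66 CPM in control libraries. The 7 B cell markers summed to 19.9 and 29.6 CPM in Tcf1-deficient, 16.3 and 13.9 CPM in p45-deficient and 36.3 and 28.7 CPM in control libraries, lowest in the p45-deficient ones. Most of each sum was Cd79b, at 17.7 and 28.4 CPM in Tcf1-deficient, 15.7 and 13.3 CPM in p45-deficient and 25.7 and 27.1 CPM in control libraries. The nuclear RNA Malat1 was at 1452 and 783.7 CPM in Tcf1-deficient, 541.6 and 465.7 CPM in p45-deficient and 889.6 and 884.5 CPM in control libraries. The part of these in the values of the members was not tested. Calls over all genes depended on the scaling, with 1096 higher and 977 lower under TMM, and 721 higher and 1281 lower under library totals.

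The members with the largest fitted differences did not pass the test. Fosb averaged 2.20 ± 0.0622 CPM in p45-deficient and 278 ± 355 CPM in control cells (log2 fold change −6.98, SE 1.7, edgeR adjusted p = 0.0586). Fos averaged 5.08 ± 0.472 CPM in p45-deficient and 284 ± 364 CPM in control cells (log2 fold change −5.81, SE 1.6, edgeR adjusted p = 0.0771). Junb had a log2 fold change of −3.25 (SE 0.98, edgeR adjusted p = 0.0918). For Fosl2, Ier2 and Egr1 the log2 fold changes were −1.20, −0.96 and −0.98, with SEs of 0.60, 0.42 and 0.53. Egr2 and Egr3 had log2 fold changes of −0.42 (SE 0.77) and −0.30 (SE 0.68). Both p45-deficient libraries lay below both controls for 7 members, all but the 3 Egr genes, against 31.3% of all genes tested. The median log2 fold change of the 10 members was −1.50, against 0.046 over all genes tested.

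Because the 2 controls lay so far apart, each was also used alone, with the lone library assumed to vary like the other groups. For the members the controls varied more, with a median gap in log2 CPM of 1.77, against 0.573 in Tcf1-deficient and 0.126 in p45-deficient cells. Calls with 1 control therefore do not measure the spread of the controls, and only effect sizes are given here for the fits with 1 control. Jun, Junb, Jund, Fos and Fosb had negative log2 fold changes against either control alone, as did Fosl2 and Ier2. Against control replicate 1, the lower of the controls, Jun had a log2 fold change of −2.71, Fosb −3.65, Fos −2.43, Junb −1.23 and Jund −1.15, with edgeR adjusted p from 0.0190 to 0.0482. These were the only 5 members called there, beside 2.76% of all genes called lower. Against control replicate 2 the same 5 genes had log2 fold changes from −7.96 (Fosb) to −2.31 (Jund), and Egr1 and Ier2 were called as well, which made 7 members beside 2.13% of all genes called lower. The Egr genes turned with the choice of control. Egr1, Egr2 and Egr3 had log2 fold changes of 0.03, 0.76 and 0.53 against control replicate 1, and of −1.64, −1.12 and −0.88 against control replicate 2. The calls of Jun and Jund were lost without any single p45-deficient or Tcf1-deficient library, where no member was called.

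**Figure D2:**
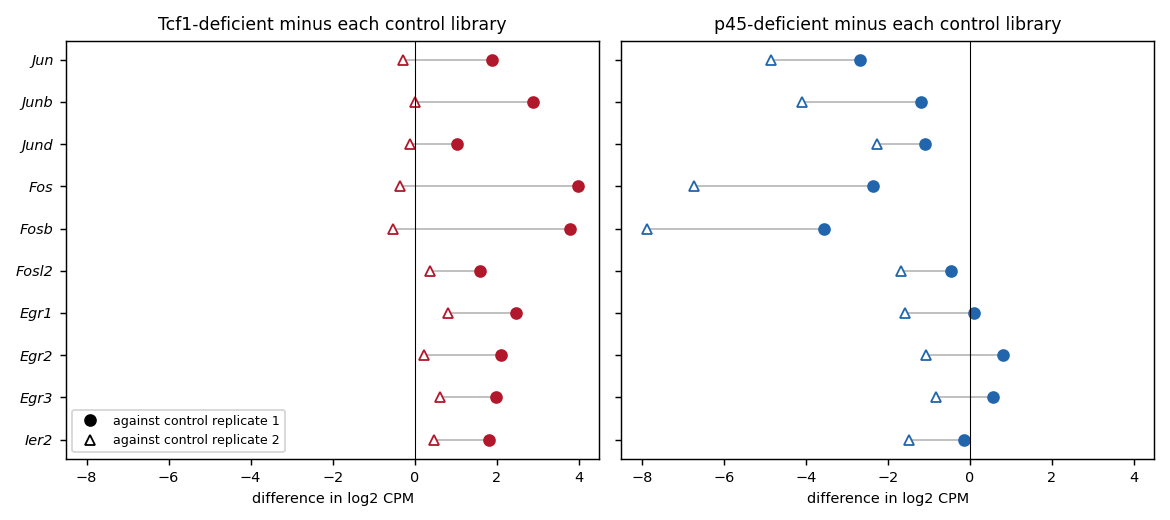
Difference in log2 CPM between the mean of the 2 Tcf1-deficient (left) or 2 p45-deficient (right) libraries and each control library, filled circles for control replicate 1 and open triangles for control replicate 2. For the Jun genes, Fos and Fosb both p45-deficient points lie below 0, from −1.10 to −7.86, while the 3 Egr genes lie on both sides of 0.

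Tcf1-deficient cells were compared with control cells to see what follows deletion of the floxed allele. The control libraries are the same as in the comparison before. No member was called, and edgeR called 0 of the 12939 genes, a share of 0%. At an unadjusted p below 0.05 there were 1024 genes (7.91%), and DESeq2 called 145 genes, none of them members. Egr1 had the smallest p of the members. It averaged 165 ± 25.9 CPM in Tcf1-deficient and 61.8 ± 45.7 CPM in control cells (log2 fold change 1.42, SE 0.53, edgeR adjusted p = 0.623). Ier2 averaged 131 ± 18.0 CPM in Tcf1-deficient and 65.3 ± 39.9 CPM in control cells (log2 fold change 1.00, SE 0.41, edgeR adjusted p = 0.626). These were the 2 members whose Tcf1-deficient libraries both lay above both controls, beside 16.4% of all genes tested. The AP-1 genes had log2 fold changes of 0.36 (Jund, SE 0.37) to 1.04 (Fosl2, SE 0.58). Jun, Jund, Fos and Fosb had the opposite sign against control replicate 2 alone, at −0.26, −0.11, −0.28 and −0.48. Against control replicate 1 alone, Fos had a log2 fold change of 4.07 and Fosb 3.82, and no member was called by edgeR there either.

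Tcf1-deficient cells were then compared directly with p45-deficient cells, in a fit whose filter, scaling and estimate of spread also used the controls. Jun, Jund and Ier2 were higher in Tcf1-deficient cells. Jun averaged 515 ± 109 CPM in Tcf1-deficient and 21.8 ± 5.71 CPM in p45-deficient cells, a 23.6-fold difference (log2 fold change 4.56, SE 0.84, edgeR adjusted p = 0.0410). Jund averaged 505 ± 96.3 CPM in Tcf1-deficient and 114 ± 2.28 CPM in p45-deficient cells (log2 fold change 2.15, SE 0.38, edgeR adjusted p = 0.0276). Ier2 averaged 131 ± 18.0 CPM in Tcf1-deficient and 33.5 ± 2.06 CPM in p45-deficient cells (log2 fold change 1.96, SE 0.42, edgeR adjusted p = 0.0440). These 3 of 10 stand beside 5.05% of all genes tested called higher. DESeq2 called 9 members higher, all but Egr2, beside 10.6% of all genes, and edgeR on only the 4 libraries compared called 7, beside 2.33%. With no filter on low counts edgeR called none (Jun 0.107, Jund 0.0794, Ier2 0.127 as adjusted p). Egr1 (log2 fold change 2.40, SE 0.55), Fosl2 (2.24, SE 0.61), Fosb (7.42, SE 1.7), Junb (4.08, SE 1.0) and Fos (6.46, SE 1.7) had edgeR adjusted p from 0.0556 to 0.0782, above the threshold of 0.05. Egr3 (1.71, SE 0.68) and Egr2 (1.53, SE 0.78) lay further from it, with edgeR adjusted p of 0.144 and 0.246.

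All 10 members had both Tcf1-deficient libraries above both p45-deficient libraries, beside 27.7% of all genes tested. Without either control library in turn, 7 members were called higher, Jun, Junb, Jund, Fos, Fosb, Egr1 and Ier2, beside 3.02% of all genes without control replicate 1 and 2.95% without control replicate 2. Without Tcf1-deficient replicate 2, Fosl2 and Egr3 were called in place of these, beside 12.1% of all genes, and without Tcf1-deficient replicate 1 or either p45-deficient library no member was called. The p45-deficient against control and the Tcf1-deficient against p45-deficient comparisons share the p45-deficient libraries, so their calls are not independent of each other.

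**Figure D3:**
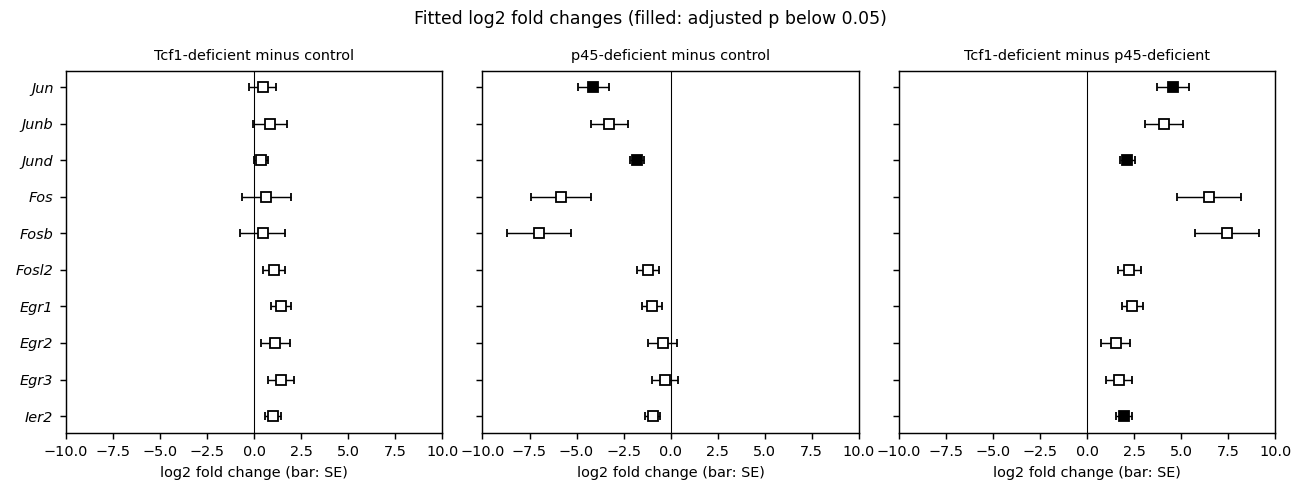
Fitted log2 fold changes with SE bars for the 10 genes in the 3 comparisons, filled squares at an adjusted p below 0.05. Filled squares stand at Jun and Jund in p45-deficient against control and at Jun, Jund and Ier2 in Tcf1-deficient against p45-deficient cells, and the SE bars of Fos and Fosb are the widest, up to 1.7.

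How far a gene varied between the 3 groups or between the 2 libraries of a group was described by the share of its sum of squares of log2 CPM that lay between groups. Over all genes tested the median share was 65.6%, and 34.5% of genes had less than 50% between groups. Jun had 90.2%, Jund 87.1%, Fosb 86.2%, Fos 81.0%, Ier2 80.5%, Egr1 80.4%, Junb 79.8% and Fosl2 68.6% between groups. Egr3 with 48.7% and Egr2 with 38.9% were the 2 members that varied more within groups than between them.

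The gap between the 2 libraries of a group was largest in control cells for 8 members and largest in Tcf1-deficient cells for Fosl2 and Egr3. Control replicate 2 was above control replicate 1 for all 10 members, by a log2 difference of 1.16 for Jund up to 4.36 for Fos and 4.30 for Fosb. In Tcf1-deficient cells replicate 2 was higher than replicate 1 for Fos by 1.01, Fosb by 0.71, Jun by 0.43, Junb by 0.39 and Egr1 by 0.32 on the log2 scale. Replicate 1 was higher there for Egr3 (a log2 difference, replicate 2 minus replicate 1, of −1.82), Egr2 (−1.69), Fosl2 (−1.45), Jund (−0.39) and Ier2 (−0.28). Tcf1-deficient replicate 1 is the library with the higher double-positive and mature thymocyte markers given above, and the part of those cells in the Egr2, Egr3 and Fosl2 values was not tested. The p45-deficient libraries differed by at most a log2 difference of 0.54, for Jun.

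**Figure D4:**
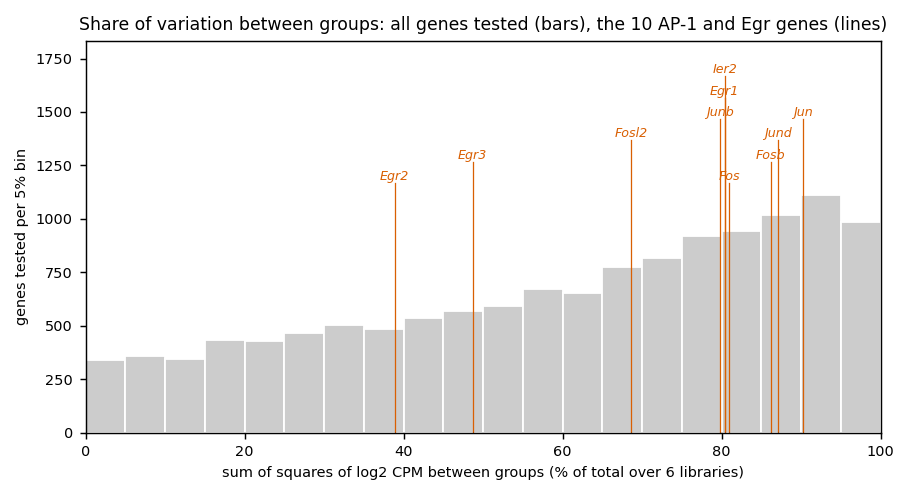
Histogram of the share of the sum of squares of log2 CPM that lies between the 3 groups, for all 12939 genes tested in bins of 5%, with a line for each of the 10 genes. Egr2 (38.9%) and Egr3 (48.7%) lie to the left of the others, which run from 68.6% to 90.2%.

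Ratios between members within one library do not depend on how libraries are scaled. Fos stood to Fosb, per kilobase, at 2.73 and 3.35 in Tcf1-deficient, 5.61 and 6.67 in p45-deficient and 2.62 and 2.72 in control libraries. The 2 controls had nearly the same ratio, and both p45-deficient libraries had a higher one. Jun stood to Jund at 0.400 and 0.709 in Tcf1-deficient, 0.120 and 0.0804 in p45-deficient and 0.295 and 0.594 in control libraries, again with the p45-deficient libraries apart from all others. Junb stood to Jund at 0.747 and 1.28 in Tcf1-deficient, 0.233 and 0.278 in p45-deficient and 0.270 and 0.901 in control libraries. On this ratio the p45-deficient libraries spanned control replicate 1. Fos stood to Egr1 at 3.83 and 6.16 in Tcf1-deficient, 0.276 and 0.344 in p45-deficient and 1.71 and 11 in control libraries, and the p45-deficient libraries were the lowest. The lists, ratios and members were chosen with earlier results known, so these ratios are descriptions and were not tested.

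Other genes of the pathway were read from lists of its named parts. Of 11 tested AP-1 relatives outside the members, 2 rose and 2 fell in p45-deficient against control cells, with a median log2 fold change of −0.03. Batf, a Jun partner without an activation domain, rose 3-fold, with 18.8 and 20.2 CPM in p45-deficient and 6.14 and 6.83 CPM in control libraries (edgeR adjusted p = 0.0131). In Tcf1-deficient libraries Batf had 18.2 and 10.7 CPM, also above both controls, and was not called against control. Mafk, a small Maf gene, and Atf7, an ATF family gene, fell, with log2 fold changes of −0.70 (SE 0.11) and −0.78 (SE 0.19). Unlike the members, Mafk (133 and 131 CPM) and Atf7 (25.7 and 26.1 CPM) had nearly the same level in both controls.

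Upstream of the members, Elk3, a ternary complex factor that works with serum response factor, fell and was the 1 of 6 genes called in that list. It stood at 36.5 and 35.6 CPM in p45-deficient and 61.6 and 72.5 CPM in control libraries (log2 fold change −0.89, SE 0.14, edgeR adjusted p = 0.00855), and at 78.2 and 70.0 CPM in Tcf1-deficient libraries. Of 18 genes of the MAP kinase route, 2 rose and 1 fell. Nras, a GTPase gene, rose 1.38-fold (edgeR adjusted p = 0.0394). Map2k7, which encodes a kinase that activates the Jun kinases, fell with a log2 fold change of −0.47 (SE 0.11, edgeR adjusted p = 0.0294). None of 3 tested Egr partners and none of 7 tested genes known as AP-1 or Egr targets was called. Nab2, a corepressor induced by Egr factors, had 24.7 and 29.9 CPM in p45-deficient and 33.0 and 54.6 CPM in control libraries, and 114 CPM in Tcf1-deficient replicate 1 against 34.2 CPM in replicate 2. Socs1, a suppressor of cytokine signals and the target gene with the smallest p, had a log2 fold change of −0.67 (SE 0.23, edgeR adjusted p = 0.0843). These lists stand beside 16% of all genes called in either direction in this comparison.

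The median log2 fold change of the 21 other immediate-early genes tested was −0.55 in p45-deficient against control cells. They held 1 call, beside 16% of all genes tested called in either direction. That was Csrnp1, a nuclear protein gene induced by axin, which fell with 44.6 and 45 CPM in p45-deficient and 67.1 and 120 CPM in control libraries (log2 fold change −1.06, SE 0.25, edgeR adjusted p = 0.0342). The library medians of this list, in log2 CPM relative to the mean of the 6 libraries, were 1.18 and 0.44 in Tcf1-deficient, −0.61 and −0.55 in p45-deficient and −0.77 and 0.55 in control libraries. The genes of the list went both ways, with control replicate 1 above both p45-deficient libraries for 10 genes and below both for 11. Dusp1, a phosphatase gene that ends MAP kinase signals, was among the 11, with 40.4 and 39.3 CPM in p45-deficient and 20.6 and 223 CPM in control libraries. Klf4, a zinc-finger factor gene, was among the 10, with 1.10 and 0.862 CPM in p45-deficient and 3.43 and 117 CPM in control libraries. Both were chosen after their values were seen, and neither was called. In Tcf1-deficient against p45-deficient cells 2 genes of this list were called higher, beside the 5.05% of all genes given above. They were Csrnp1 and Ier3, a stress-response gene with 3.34 and 4.58 CPM in Tcf1-deficient and 0.294 and 0.144 CPM in p45-deficient libraries (log2 fold change 4.11, SE 0.91, edgeR adjusted p = 0.0354). In Tcf1-deficient against control cells no gene of any pathway list was called.

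Heat-shock genes, which answer warming and stress of cells, showed the same arrangement in the 2 inducible Hsp70 genes but not in the list. Hspa1a had 12.9 and 25.3 CPM in Tcf1-deficient, 0.110 and 0.239 CPM in p45-deficient and 1.55 and 34.8 CPM in control libraries. Hspa1b had 34.4 and 58.1 CPM in Tcf1-deficient, 0.221 and 0.335 CPM in p45-deficient and 5.95 and 75.6 CPM in control libraries, and both were named after their values were seen. Of 11 tested heat-shock genes, 1 was called in p45-deficient against control cells, beside 16% of all genes tested called in either direction. It was the co-chaperone gene Bag3, with 3.53 and 1.53 CPM in p45-deficient and 7.06 and 10.6 CPM in control libraries. Bag3 fell with a log2 fold change of −1.80 (SE 0.45, edgeR adjusted p = 0.0383). The library medians of the list ran from −0.29 to 0.22 over all 6 libraries. Whether handling had a part in the values of the members was not tested, since no label gives it.

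**Figure D5:**
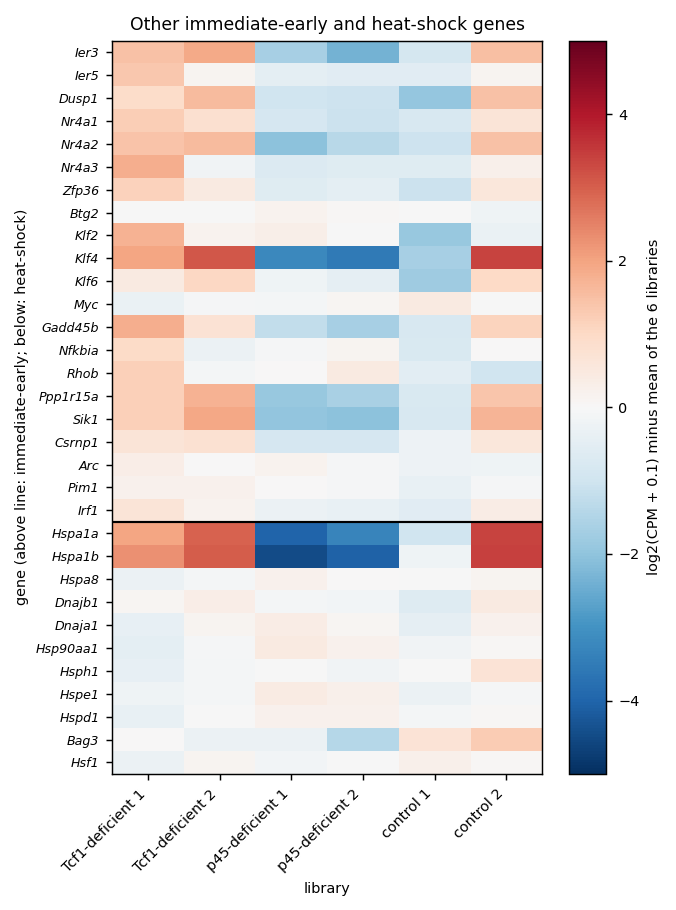
Heat map of log2(CPM + 0.1) minus the mean of the 6 libraries for 21 other immediate-early genes (above the line) and 11 heat-shock genes (below it), with Tcf1-deficient, p45-deficient and control libraries from left to right. Klf4, Hspa1a and Hspa1b are high in both Tcf1-deficient libraries and control replicate 2, for Klf4 at 44.3, 96.8 and 117 CPM, whereas most other heat-shock genes are near 0 throughout.

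The members were alike among themselves to different degrees. Against the mean centred log2 CPM of the 10 members over the 6 libraries, a profile to which each member contributes, Junb had a Pearson correlation of 0.992, Fos 0.985, Jund 0.982, Fosb 0.981, Ier2 0.974 and Jun 0.965. Egr1 had 0.938, Fosl2 0.914, Egr2 0.742 and Egr3 0.736. The 5 tested genes outside the members with the highest correlation to that profile were Smad4 (0.996), Pnrc1 (0.994), Rbm25 (0.994), Csrnp1 (0.992) and Gm4285 (0.991). Their amplitudes differed from those of the members. Smad4, a transducer of TGF-beta signals, had 96.5 and 95.6 CPM in Tcf1-deficient, 85.1 and 84.2 CPM in p45-deficient and 87.2 and 96.7 CPM in control libraries. Pnrc1, a nuclear receptor coactivator gene, had 179 and 164 CPM in Tcf1-deficient, 57.0 and 61.2 CPM in p45-deficient and 78.2 and 188 CPM in control libraries. With 6 libraries and 12939 genes to choose from, these correlations describe a ranking only.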

How the data were processed

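RNA from 6 libraries of sorted DN3 thymocytes was analysed, 2 each from Tcf1-deficient, p45-deficient and control mice, grouped by the genotype in the labels. The deposited values are raw whole-number counts, 1 per gene symbol and library. Per the submitters' processing notes, TopHat2, featureCounts 1.5.0-p3 and DESeq2 3.4 were named, with the build mm9 and neither role nor order. The annotation is not given in the sources used here, and neither is the strand setting.

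Genes were filtered with filterByExpr (12939 left) and scaled by TMM. All 6 libraries were fitted together with edgeR 4.0.16 in R 4.3.3 (robust quasi-likelihood, 1 mean per group, 3 residual degrees of freedom), with two-sided F tests and Benjamini-Hochberg adjustment over all genes, called below 0.05. SEs were derived from the F statistic. Log2 CPM used a prior count of 2. Exon lengths came from GENCODE M21. With 2 libraries a group, SDs rest on 2 values, and libraries of a group differed beyond counting noise (chi-square per degree of freedom 76.5 in Tcf1-deficient, 9.93 in p45-deficient and 39.9 in control), so none was treated as a duplicate deposit of another. The fit was tested on simulated counts with the same spread in every group, and the outcome is not reported here. The members did not have the same spread in every group, so that test does not cover their case. There were 13 alternatives, among them DESeq2 1.42.0 and 3 other scalings.

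The members and gene lists were chosen with earlier results of these data known. Named list genes are those called in p45-deficient against control, at most 4 per list, or else the one with the smallest p, and the 5 genes most alike. Of the genes this rule names, 2 are not reported here.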

Additional observations from a re-analysis of the deposited data

How the results depend on the processing

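Over the 13 alternatives the log2 fold changes of the 10 members kept their sign in Tcf1-deficient against p45-deficient cells, and in the other comparisons 7 of them changed sign, in the 2 fits that left out a control library. Without control replicate 2, p45-deficient against control, these were Egr1 (0.03), Egr2 (0.76) and Egr3 (0.53), whose values without 1 library began at −1.64, −1.12 and −0.88. Without control replicate 1, Tcf1-deficient against control, they were Jun (−0.26), Jund (−0.11), Fos (−0.28) and Fosb (−0.48), whose values without 1 library reached 1.90, 1.04, 4.07 and 3.82. Members called in p45-deficient against control were 2 in the fit reported, 6 by DESeq2, 0 with no filter, 0 with only the 4 libraries compared and 0 to 7 without 1 library. In Tcf1-deficient against p45-deficient cells they were 3, then 9 by DESeq2, 0 with no filter, 7 with only the 4 libraries compared and 0 to 7 without 1 library. In Tcf1-deficient against control none was called in any fit. Each fit without 1 library leaves 1 library in a group, so its calls do not measure the spread of that group. All genes called in p45-deficient against control were 2073, then 3907 with only the 4 libraries compared and 258 to 3923 without 1 library. In Tcf1-deficient against control they were 0, then 145 by DESeq2, 33 with no filter and 0 to 894 without 1 library. In Tcf1-deficient against p45-deficient they were 1348, then 2551 by DESeq2, 488 with only the 4 libraries compared and 105 to 3437 without 1 library. The cause of these moves was not tested. RLE, library totals and upper-quartile scaling left the members called in p45-deficient against control at 2.

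The labels number the libraries 1 and 2 in each group, but same-numbered libraries did not deviate together (correlations over genes of −0.029, −0.05 and −0.014), so the numbers were not taken as pairs. With the replicate number as a block, 0 members were called in p45-deficient against control, 0 in Tcf1-deficient against p45-deficient and 0 in Tcf1-deficient against control.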
